A study of Mus musculus with 15 samples.

Results

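The 10 genes described here belong to the neutrophil, and most code for proteins stored in its granules. In the femur of male mice 3 of them were lower after surgery in spaceflight (FLT-Surgery) than in flight mice without a defect (FLT-Sham). These were myeloperoxidase (Mpo), the cathelicidin Camp and the neutrophilic granule protein Ngp, with log2 differences of -2.48 to -4.81. They passed a cut-off of at least 2-fold with a limma p, before adjustment, no higher than 0.01. At this cut-off 6.23% of all 19131 probes tested were called lower, and the median log2 difference over all tested was -0.28. The adjusted p in limma was 0.0397 for Mpo, 0.0736 and 0.0518 for the 2 Camp probes and 0.136 for Ngp. Ngp missed the cut-off with a second loess normalization and without FLT-Surgery replicate 3. The resistin-like Retnlg also passed the cut-off, but it was above background on 1 of 3 FLT-Surgery arrays. The genes were chosen by name as S100a8, S100a9, Ngp, Camp, Ltf, Elane, Mpo, Lcn2, Mmp8 and Retnlg. Every probe whose accession matched one of them was kept, which gave 11 probes out of 55681, of which 28026 carried a symbol. Camp had 2 probes and each other gene had 1.

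The mice of all 4 groups were male C57BL/6J. The labels give an age of 9 weeks, which per the study's methods was the age at surgery, with tissue taken some weeks later and ground mice slightly younger at that time. G-Sham (4 arrays) and FLT-Sham (4 arrays) came from femurs without a defect, and G-Surgery (4 arrays) and FLT-Surgery (3 arrays) from femurs with a segmental bone defect (SBD), a gap cut from the bone shaft that held a graft scaffold, with a collagen sponge wetted with saline around it. FLT mice were flown on a space station after surgery and G mice stayed on the ground. The tissue was the callus or, in Sham mice, the same stretch of midshaft, taken from carcasses that had been frozen and partly thawed, with 1 mouse on each array, and the study describes the RNA as of low integrity. The sample was labelled with Cy5 and a reference RNA pooled from 11 mouse cell lines with Cy3, so each ratio compares a femur with cultured cells. Between 12488 and 21460 probes (22.4% to 38.5%) were well above background in Cy5, with 14812 to 21460 in FLT-Sham and 12488 to 14257 in FLT-Surgery. The 15 arrays lay on 3 slides, and G-Sham replicate 4 was alone on the third. Muscle markers were above background throughout, at 10 to 12 of 12 on every array, while 1 to 6 of 10 osteoblast and osteocyte genes were, with Col1a1 on 15 arrays, Bglap on 8, and Sp7, Dmp1, Phex and Sost on none.

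Neutrophils mature in the bone marrow and fill their granules in a fixed order. Promyelocytes make the primary granules with myeloperoxidase and elastase, myelocytes make the secondary granules with lactoferrin and cathelicidin, and gelatinase granules and surface receptors follow in the last stages. Transcripts of granule proteins are therefore abundant in marrow and fall as the cell matures, whereas the calcium-binding proteins S100a8 and S100a9, which are cytosolic and not granule proteins, stay abundant in the mature cell. In RNA of a whole tissue, fewer cells of a type and less RNA in each cell cannot be told apart.

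The neutrophil origin of the signal was checked with other genes of the cell. Csf3r, the receptor for granulocyte colony-stimulating factor, was above background on all 15 arrays, but the serine protease Prtn3 was above it on 5, the chemokine receptor Cxcr2 on 2 and the gelatinase Mmp9 on 1, and Ms4a3 on none. Of 55 other neutrophil genes with a probe, 16 to 32 were above background on an array. Of the 10 genes themselves, S100a9, Ngp, Camp, Elane and Lcn2 were well above background in Cy5 on 15 arrays, Mpo on 14, S100a8 on 12, Retnlg on 8, Ltf on 5 and Mmp8 on 3. In the reference channel Ltf and Mmp8 were above background on 0 arrays and Ngp and Retnlg on 1, so the ratios of these 4 genes rest on a reference signal near background, and Cy5 is given beside them. S100a9 was above background in the reference on 14 arrays but was also dim there. Its Cy3 signal was 18.4 to 113.8, which overlaps the 10.8 to 36.1 of Ltf.

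Promoter sequence is shown for the 4 genes that fell in FLT-Surgery against FLT-Sham and for 2 that did not and were above background on every array (Elane and Lcn2). The 250 bases before each annotated start come from RefSeq (build GRCm38.p6) and run 5′ to 3′ on the gene's strand. They are chr11:87793534-87793783 (plus strand) for Mpo, chr9:109849457-109849706 (minus) for Camp, chr9:110419558-110419807 (plus) for Ngp, chr16:48872358-48872607 (plus) for Retnlg, chr10:79886062-79886311 (plus) for Elane and chr2:32387740-32387989 (minus) for Lcn2. Capitals mark matches to letters of the kind bound by factors of granulocyte development, TTNNGNAA or its reverse complement TTNCNNAA for C/EBP factors, GAGGAA or TTCCTC for PU.1 and TGTGGT or ACCACA for RUNX factors.
Mpo: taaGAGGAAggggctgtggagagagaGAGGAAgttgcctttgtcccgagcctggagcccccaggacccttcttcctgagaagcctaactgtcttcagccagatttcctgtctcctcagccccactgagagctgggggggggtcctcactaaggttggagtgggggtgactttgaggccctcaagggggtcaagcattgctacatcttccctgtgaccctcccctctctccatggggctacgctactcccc
Camp: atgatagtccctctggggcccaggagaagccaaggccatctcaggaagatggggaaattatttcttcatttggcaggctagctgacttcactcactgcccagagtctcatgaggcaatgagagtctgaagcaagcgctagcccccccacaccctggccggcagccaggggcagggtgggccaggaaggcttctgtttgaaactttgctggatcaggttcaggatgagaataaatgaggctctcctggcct
Ngp: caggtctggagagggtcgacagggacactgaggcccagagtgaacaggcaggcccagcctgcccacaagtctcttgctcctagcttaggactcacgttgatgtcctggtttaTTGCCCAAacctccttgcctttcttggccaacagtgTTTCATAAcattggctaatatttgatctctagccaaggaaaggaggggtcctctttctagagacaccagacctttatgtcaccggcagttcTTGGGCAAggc
Retnlg: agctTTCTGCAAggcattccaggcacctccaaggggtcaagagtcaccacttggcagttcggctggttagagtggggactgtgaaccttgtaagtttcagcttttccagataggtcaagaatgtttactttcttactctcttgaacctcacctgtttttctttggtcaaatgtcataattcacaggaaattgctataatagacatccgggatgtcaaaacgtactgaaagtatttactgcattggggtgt
Elane: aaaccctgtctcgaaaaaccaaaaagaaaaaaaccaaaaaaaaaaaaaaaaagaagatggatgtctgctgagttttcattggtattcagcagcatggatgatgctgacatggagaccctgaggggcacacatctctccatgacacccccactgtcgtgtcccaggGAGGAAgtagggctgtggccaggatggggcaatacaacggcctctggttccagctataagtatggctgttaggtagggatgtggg
Lcn2: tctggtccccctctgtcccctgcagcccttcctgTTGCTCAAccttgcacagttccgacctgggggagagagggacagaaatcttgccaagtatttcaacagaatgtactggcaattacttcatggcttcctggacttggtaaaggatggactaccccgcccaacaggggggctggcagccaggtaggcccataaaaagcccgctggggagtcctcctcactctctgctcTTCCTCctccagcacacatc

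The Ngp promoter held 3 C/EBP matches, Retnlg 1 and Lcn2 1, and those of Camp, Mpo and Elane held none. PU.1 letters were found in Mpo (2 matches), Elane (1) and Lcn2 (1). Over the promoters of the 10 genes, 7 held the C/EBP letters, against 36.9% of 32841 promoters of this length, 6 the PU.1 letters (23.3%) and 1, S100a9, the RUNX letters (14%). No matches overlapped. A match says only that these letters are in the window. Camp, Ngp, Ltf and Mmp8 all lie on chromosome 9, and S100a8 and S100a9 on chromosome 3.

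Myeloperoxidase, the haem enzyme of primary granules that makes hypochlorous acid, separated FLT-Sham from FLT-Surgery on every array. Its Cy5 signal was 4292, 4644, 3201 and 5857 in FLT-Sham and 310, 155 and 254 in FLT-Surgery. All FLT-Sham arrays lay above all FLT-Surgery arrays, and the 155 of FLT-Surgery replicate 3 was not well above background. G-Sham arrays spread widely, at 711, 2152, 4291 and 207, and the G-Surgery arrays gave 316, 456, 699 and 1647. The highest G-Sham value, in replicate 4, came from a spot with a local background of 135, against 23 to 25 on the other arrays. The mean log2 ratio was 4.16 ± 1.97 (SD, n = 4) in G-Sham, 6.20 ± 0.39 (SD, n = 4) in FLT-Sham, 3.09 ± 1.20 (SD, n = 4) in G-Surgery and 1.39 ± 0.60 (SD, n = 3) in FLT-Surgery.

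Elane, the neutrophil elastase that shares the primary granule with Mpo, did not follow it. Its Cy5 signal was between 2381 and 5464 in G-Sham, 2958 and 5676 in FLT-Sham, 3621 and 6068 in G-Surgery and 3488 and 7897 in FLT-Surgery, so the groups overlapped. The 2 highest values of the 15 arrays were in FLT-Surgery replicates 5 (7897) and 3 (7040). On these 2 arrays Cy5 was multiplied by 50.9 and 59.5 in the linear dye normalization, against 19.8 to 48.0 on the other arrays, and the raw Elane median was only 84 to 199 on all 15 arrays; the part of this in the result was not tested. Over the arrays the log2 ratio of Elane had a Pearson r of -0.66 with the mean of the other 9 genes (n = 15), the only negative value among the 10.

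Among the secondary granule genes, Camp codes for the precursor of the antimicrobial peptide cathelicidin. Its brighter probe gave a Cy5 signal of 33319, 53422, 34297 and 57936 in FLT-Sham, 18154, 31435, 4781 and 4614 in G-Sham, 3819, 7181, 11547 and 33059 in G-Surgery, and 4761, 1404 and 2632 in FLT-Surgery. The lowest FLT-Sham array was above every array of the other 3 groups. The second probe gave 21292 to 38517 in FLT-Sham, 2522 to 21989.5 in G-Sham, 2547 to 16529 in G-Surgery and 694 to 2741 in FLT-Surgery, with the same order of the group means of log2 ratio.

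Ngp, a cystatin-related protein of the same granules, was lower in both operated groups than in both Sham groups in Cy5. It read 8594, 29073, 7357 and 8952 in G-Sham and 18258, 23493, 10555 and 39857 in FLT-Sham, against 2512, 4006, 3281 and 4249 in G-Surgery and 4000.3, 1150.0 and 3185 in FLT-Surgery. The highest operated array thus lay below the lowest Sham array. In log2 ratio the G-Sham and G-Surgery arrays overlapped, with means of 10.17 ± 0.70 (SD, n = 4) and 9.13 ± 0.70 (SD, n = 4).

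Ltf, the iron-binding lactoferrin, was well above background on 3 FLT-Sham arrays, 1 array in each G group and 0 in FLT-Surgery, with a highest signal of 814 in FLT-Sham replicate 6. FLT-Sham was at least 2.75-fold higher than FLT-Surgery in Cy5, where each FLT-Surgery array counts at its dimmest signal still called above background. Lcn2, or lipocalin 2, which binds bacterial siderophores and is also made outside neutrophils, had the smallest range of log2 ratio of the 11 probes. It lay between -0.71 and 0.60 on all 15 arrays, and its Cy5 signal was 2676 to 4204 in FLT-Sham and 1853 to 2586 in FLT-Surgery.

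The collagenase Mmp8 was well above background on 3 arrays only, FLT-Sham replicates 4, 6 and 9, at 154, 149 and 186, and FLT-Sham was at least 1.18-fold higher than G-Sham. Retnlg, a resistin-like protein of late neutrophil stages, read 960.1, 1606, 147 and 1346 in FLT-Sham and 354, 43.0 and 22.8 in FLT-Surgery, of which only the 354 of replicate 1 was above background. In G-Sham it was above background on replicates 3 and 5, at 379 and 361, and in G-Surgery on replicate 5, at 242. Retnlg followed the other 9 genes most closely, with r = 0.93 (n = 15 arrays), against 0.26 for Lcn2.

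S100a8 and S100a9 code for the partners of calprotectin, but their probes parted on several arrays. S100a9 was well above background on every array, with 47791 to 133074 in G-Sham, 88713 to 249547 in FLT-Sham, 38245 to 90979 in G-Surgery and 80662, 3884 and 19429 in FLT-Surgery. S100a8 read 74.5, 4603, 9963 and 12066 in G-Sham, 29915, 28620.2, 2985 and 31531 in FLT-Sham, 1127 to 3853 in G-Surgery, and 14611, 213 and 57.2 in FLT-Surgery. It was not well above background in G-Sham replicate 1 or in FLT-Surgery replicates 3 and 5, where S100a9 read 47791, 3884 and 19429. For S100a8 FLT-Surgery replicate 1 lay within the range of FLT-Sham, and for S100a9, Mpo, Camp and Ngp it lay below every FLT-Sham array.

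One FLT-Sham array split the genes in a similar way. In replicate 8 the S100a8 signal was 2985 against 28620.2 to 31531 in the rest of the group, Retnlg was 147 against 960.1 to 1606, and Ltf and Mmp8 were not well above background. Mpo, at 3201, and Ngp, at 10555, were also at their lowest in the group, and Camp read 34297. This array had the fewest probes above background in its group, 14812 against 19420 to 21460.

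**Figure D1:**
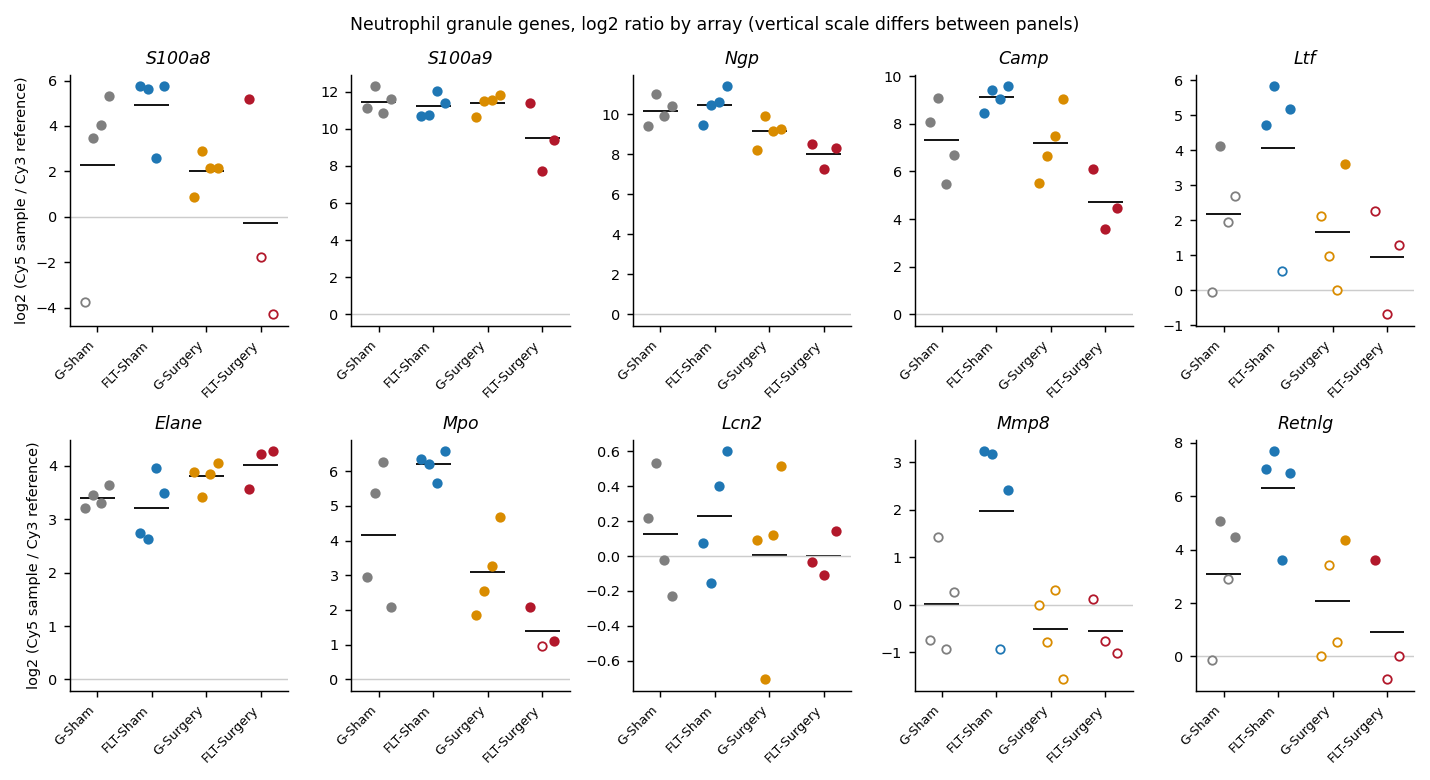
Log2 ratio of sample (Cy5) to reference (Cy3) for the 10 genes, 1 point per array by group, with lines at group means; open points were not well above background in Cy5. Mpo in FLT-Sham sits at 5.65 to 6.57 and in FLT-Surgery at 0.97 to 2.07, while Elane stays between 2.63 and 4.28.

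**Figure D2:**
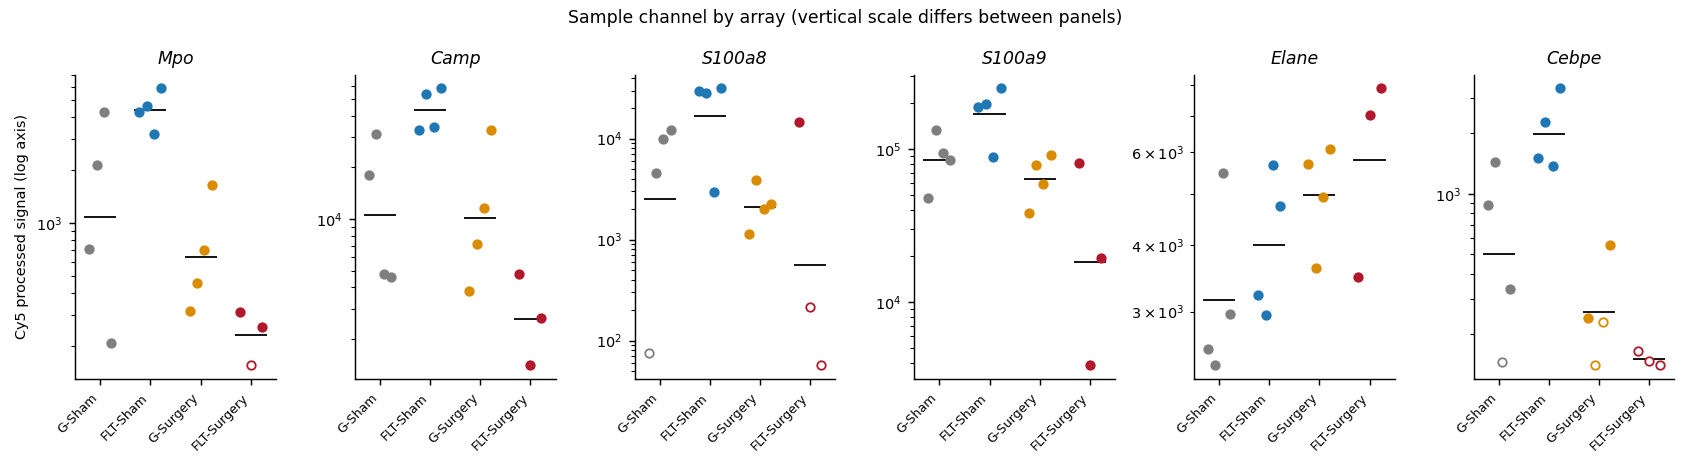
Cy5 signal on a log axis for 5 of the genes and for Cebpe, with lines at geometric means; open points were not well above background. S100a8 is at background in 1 G-Sham and 2 FLT-Surgery arrays, and Cebpe in all 3 FLT-Surgery arrays.

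The comparison of FLT-Surgery with FLT-Sham asks how a defect changes the femur in spaceflight, and it was the one of the 4 comparisons between groups in which granule genes passed the cut-off. Each group enters 2 of these comparisons, so they are not independent of each other. Mpo, Camp, Ngp and Retnlg were lower, and S100a8, S100a9, Ltf, Mmp8, Lcn2 and Elane did not pass. To pass, a probe had to differ at least 2-fold with a limma p, before adjustment, no higher than 0.01. Of the 11 probes tested, 5 were called lower and 0 higher, while 6.23% of all 19131 probes tested were called lower. The median log2 difference over all probes tested was -0.28. The genes above background on all 15 arrays differed by -4.40 (Camp), -2.48 (Ngp), -1.71 (S100a9), -0.23 (Lcn2) and 0.82 (Elane). No median of the 10 genes is given, since it would fall between Ltf and Mmp8, which were above background on no FLT-Surgery array.

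Mpo fell by 4.81 (SE 0.43) on the log2 scale, or 28.1-fold, with a Benjamini-Hochberg adjusted p of 0.0397 in limma, and it was the only one of these genes among the 16 probes (0.0836% of those tested) with an adjusted p of 0.05 or less. Over 16 alternative settings its adjusted p ranged from 0.000622 to 0.27, and it was at most 0.05 in 7. Camp fell by 4.40 (SE 0.63; adjusted p = 0.0736) on its brighter probe and by 4.74 (SE 0.58; adjusted p = 0.0518) on the second. Ngp fell by 2.48 (SE 0.55; adjusted p = 0.136) and Retnlg fell by 5.38 (SE 1.30; adjusted p = 0.136). Without FLT-Surgery replicate 3, Ngp at -2.10 and Retnlg at -4.49 no longer passed the cut-off, which left 3 probes called, and Retnlg at -4.92 also failed without FLT-Surgery replicate 5. Over 9 processing alternatives Retnlg ranged from -7.38 to -1.39, the latter with normexp, and missed the cut-off in 5. Without FLT-Surgery replicate 1, S100a8 at -7.95 and S100a9 at -2.67 passed, and without FLT-Sham replicate 8, Ltf at -4.28 and Mmp8 at -3.49.

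The values that did not pass were uneven. S100a8 differed by -5.22 (SE 2.06; adjusted p = 0.186 in limma) and S100a9 by -1.71 (SE 0.83). The fitted differences of Ltf at -3.10 (SE 1.32) and Mmp8 at -2.53 (SE 1.01) rest on spots that were not well above background on any FLT-Surgery array or in the reference. For Ltf the limit of at least 2.75-fold stands in its place, and for Mmp8 no fold is given, since the same limit exceeds its FLT-Sham mean. Lcn2 differed by -0.23 (SE 0.35) and Elane by 0.82 (SE 0.46), in the direction opposite to the rest. In log2 ratio the groups did not overlap for 5 of the 11 probes, all lower and the same 5 that were called, against 10.6% of all probes tested. In Cy5 they did not overlap for 6 probes, those of S100a9, Ngp, Camp, Mpo and Lcn2, against 16%. For Mpo, Camp and Ngp the groups were apart on both scales.

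Both slides that held the 2 groups gave the same sign for the called genes. On slide 1, with 2 FLT-Surgery arrays and 1 FLT-Sham array, Mpo differed by -5.32, Camp by -4.44, Ngp by -1.69 and Retnlg by -7.44. On slide 2, with 1 and 3 arrays, the differences were -4.07, -3.23, -2.34 and -2.45. S100a8 did not hold across slides, at -8.77 on slide 1 and 0.53 on slide 2, nor did S100a9, at -2.14 and 0.02. With slide as a block Mpo differed by -4.66, Camp by -3.80, Ngp by -2.03 and Retnlg by -4.80, and Retnlg then missed the cut-off. A second loess of the processed signals moved the median of all probes tested from -0.28 to 0.35, and Mpo still passed the cut-off at -3.90 and Camp at -3.09 and -3.47, while Ngp at -1.73 and Retnlg at -5.08 missed it.

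In Sham femurs, FLT against G asks what spaceflight changes in bone without a defect. Granule genes were higher on average in FLT-Sham, but 0 of the 11 probes tested passed the cut-off, against 2% of 19737 probes tested. With the unadjusted limma p held to 0.05 or less, 4 probes were listed (9.57% of all probes), those of Camp at 1.79 (SE 0.73) and 1.97 (SE 0.78), Mpo at 2.03 (SE 0.87) and Retnlg at 3.22 (SE 1.25), and the lowest adjusted p in limma was 0.51. Of the 10 genes, 8 were above 0, while the median over all probes tested was 0.24. This count holds Ltf at 1.89 (SE 1.26) and Mmp8 at 1.96 (SE 0.97). In G-Sham these 2 genes were above background on 1 and 0 arrays, and in the reference on 0. S100a8 at 2.65 (SE 1.84) had the widest error, with G-Sham replicate 1 at background. S100a9 at -0.26 and Elane at -0.19 were below 0, and S100a9 was 0.47 above 0 when the Cy5 channel alone was used. Of the other cell type markers, all 6 tested adipocyte genes were above 0 here (median 3.05), with Plin1 and Cidec called higher, and the erythroid and endothelial lists had medians of 1.02 and 1.41. The 4 tested T and NK cell genes were below 0 (median -0.48), as were 4 of 7 monocyte and macrophage genes. The part of these cell types in the granule gene values was not tested.

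Only the brighter Camp probe had Cy5 groups that did not overlap, higher in FLT-Sham, against 9.8% of probes tested. Its difference was 1.97 on slide 2 (3 FLT-Sham and 2 G-Sham arrays) and -0.62 on slide 1 (1 of each), and it was 1.21 with slide as a block. Mpo differed by 0.99 on slide 1 and 3.63 on slide 2, and with slide as a block it was at 2.85 and passed the cut-off (adjusted p = 0.637 in limma). Without FLT-Sham replicate 8 Ltf at 3.07, Mmp8 at 2.93 and Retnlg at 4.11 passed the cut-off, and without G-Sham replicate 3 both Camp probes did, at 2.38 and 2.68. Mpo passed at 2.73 without G-Sham replicate 4, the array with the high spot background.

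In operated femurs, FLT against G asks what spaceflight changes in the callus, and here most granule genes had a lower mean in FLT-Surgery, but 0 passed the cut-off. Ltf, Mmp8 and Retnlg were above background on too few arrays to be tested. Of the 8 probes tested 0 were called, against 3.14% of 16542 probes, and 7 of the 8 were below 0. Camp differed by -2.46 (SE 0.90) and -2.58 (SE 0.79) on its 2 probes, S100a9 by -1.88 (SE 0.80), Mpo by -1.70 (SE 0.66) and Ngp by -1.13 (SE 0.48), with adjusted p in limma between 0.28 and 0.303. S100a8 differed by -2.31 (SE 1.98), Elane by 0.22 (SE 0.30) and Lcn2 by -0.01 (SE 0.34). With an unadjusted p within 0.05 these 5 probes were listed, against 16.4% of all probes. The Cy5 signal of Mpo did not overlap, with FLT-Surgery at 155 to 310.0 and G-Surgery at 316 to 1647, against 10.3% of probes tested. Markers of other cell types were below 0 as well, with 11 of 11 muscle (median -1.76, 1 called) and 3 of 3 adipocyte genes (median -2.37). The same held for 3 of 3 chondrocyte (median -3.50, 1 called) and 5 of 6 erythroid genes (median -1.01), while 3 of 5 T and NK cell genes were above 0. The part of these cell types in the granule gene values was not tested.

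On slide 1 (2 FLT-Surgery and 3 G-Surgery arrays) Camp differed by -3.33, Mpo by -2.22 and S100a9 by -2.79, and on slide 2, with 1 array of each, by -0.55, -0.49 and -0.11. With slide as a block Camp differed by -2.51 and Mpo by -1.71. FLT-Surgery replicate 1 was on slide 2, and without it S100a8 at -5.04, S100a9 at -2.83 and the second Camp probe at -3.21 passed the cut-off. Without G-Surgery replicate 1 both Camp probes did, at -3.01 and -3.07.

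On the ground, G-Surgery against G-Sham asks what the defect changes without spaceflight. Of 9 probes tested, 0 passed the cut-off, against 2.59% of 17674 probes, and 0 had an unadjusted p within 0.05 (10.9% of all probes). Camp differed by -0.15 (SE 0.93), S100a9 by -0.09 (SE 0.40), Mpo by -1.08 (SE 0.99), Retnlg by less than its SE of 1.34 and Elane by 0.41 (SE 0.24), and S100a8 and Lcn2 were at -0.26 (SE 1.76) and -0.12 (SE 0.32). Ngp was nearest to a call at -1.04 (SE 0.46; adjusted p = 0.47 in limma), and its Cy5 groups did not overlap, with G-Surgery lower, against 1.08% of probes tested. It passed the cut-off at -2.27 with normexp and at -1.93 with Cy5 alone. Ngp differed by -2.14 on slide 1 and 0.01 on slide 2, and by -1.12 with slide as a block. S100a8 was at background in G-Sham replicate 1, and without that array it passed the cut-off at -2.27.

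**Figure D3:**
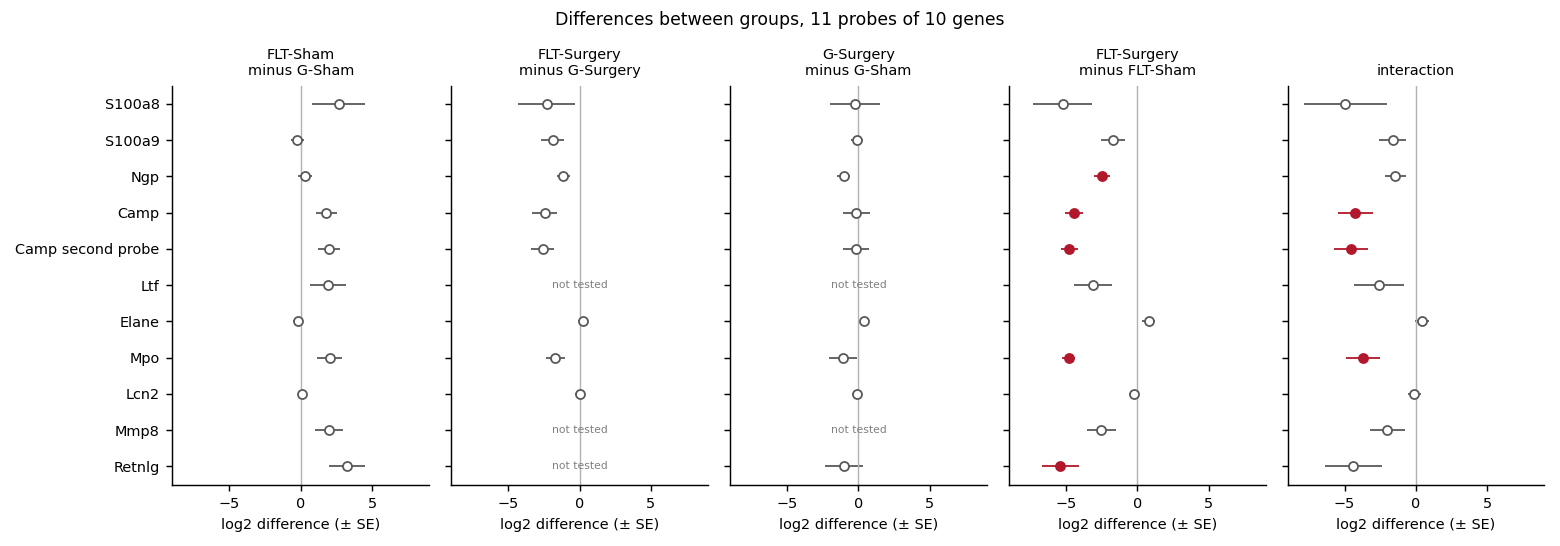
Log2 difference ± SE for the 11 probes in the 4 comparisons and the interaction; filled red points passed the cut-off. FLT-Surgery minus FLT-Sham holds 5 called probes, the interaction 3 and the other comparisons 0.

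Whether the flight difference was the same with and without a defect was tested as an interaction over all 15 arrays. At the cut-off it differed for Camp and Mpo. The flight difference in operated femurs minus that in Sham femurs was -4.25 (SE 1.23) for Camp, -4.55 (SE 1.20) for its second probe and -3.74 (SE 1.20) for Mpo. These 3 of 11 probes passed the cut-off, all lower, against 4.97% of 21773 probes. Their adjusted p in limma was 0.172, 0.171 and 0.179, and no probe on the array reached an adjusted p of 0.05 (0 of 21773, beside 19.5% with an unadjusted p within 0.05). The median over all probes tested was -0.37, and Elane, at 0.41, was the only one of the 10 genes above 0. S100a8 at -4.95 (SE 2.92), Retnlg at -4.38 (SE 2.03), Ltf at -2.61 (SE 1.75), Mmp8 at -2.003 (SE 1.22), S100a9 at -1.62 (SE 0.94), Ngp at -1.44 (SE 0.74) and Lcn2 at -0.11 (SE 0.46) did not pass. The values of Ltf and Mmp8 rest on spots above background on 5 and 3 of the 15 arrays, mostly FLT-Sham, and on 0 in the reference. Many markers of other cell types were below 0 here too, and their part in the result was not tested. These were 6 of 6 adipocyte (median -3.95, 2 called), 11 of 12 muscle (median -2.29, 1 called) and 10 of 10 monocyte and macrophage genes (median -0.66, 2 called). So were 3 of 3 chondrocyte (median -6.67, 1 called), 5 of 6 osteoblast and osteocyte (median -1.22, 2 called) and 5 of 6 endothelial genes (median -2.39, 1 called). All 5 tested T and NK cell genes were above 0 (median 0.69). With slide as a block Mpo was at -4.44, and the brighter Camp probe, at -3.64, missed the cut-off. Without FLT-Surgery replicate 3 or 5 only the second Camp probe passed, with the brighter one at -3.69 and -4.12, and without FLT-Surgery replicate 1 S100a8 at -7.69 and S100a9 at -2.58 were added. Mpo missed the cut-off in 9 of the 15 fits that left out 1 array, those without G-Sham 1 or 5, FLT-Sham 4, 6 or 9, G-Surgery 4 or 5, or FLT-Surgery 3 or 5, where it lay between -3.73 and -3.04. With a second loess, which moved the median of all probes to 0.49, 0 of the 11 probes passed, and Camp was at -2.70 and Mpo at -2.33.

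The other neutrophil genes that were bright enough to be tested did not move as a body. Of 57 further genes, listed by maturation stage, 55 had a probe and 26 were tested in FLT-Surgery against FLT-Sham, of which 1 was called lower and 1 higher, against 6.65% of all probes called in either direction. Their median was -0.36, against -0.28 over all probes. In the primary granule list Ctsg, Serpinb1a (a cytosolic inhibitor of granule proteases) and Cd63 were at -0.73, -0.42 and 0.34. In the list of the secondary granule and its maturation stage Pglyrp1, Hp and Ltb4r1 (a leukotriene receptor) were at -1.89, -1.46 and -1.28, and Chil3, Anxa1 and Lcn12 at 0.34, 0.94 and 1.13. In both lists 0 genes were called. Of 6 tested genes of the gelatinase granule 1 was called higher (median 0.80), of 7 genes of the mature surface and cytosol 0 (median 0.19), and of 4 regulators 1 was called lower (median -1.65), with Cebpd at -1.55, Gfi1 at -0.87 and the chemokine Cxcl12 at -1.74 not past the cut-off. Across the 5 lists 13 of the 55 genes were above background on no array.

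The gene called lower was Cebpe, a C/EBP transcription factor that granulocytes need for their secondary granules. Its Cy5 signal was 1514, 2269, 1374 and 3357 in FLT-Sham and 165, 146 and 139.8 in FLT-Surgery, where no array was well above background. FLT-Sham was 12.2-fold higher in Cy5 with the FLT-Surgery spots taken at their measured signal, so this fold is no lower limit. The log2 ratio of Cebpe differed by -4.18 (adjusted p = 0.0397 in limma). Over 16 alternative settings it kept its sign and passed the cut-off in all, and its adjusted p ranged from 0.000622 to 0.271. In G-Sham it was above background on replicates 1, 3 and 5 and in G-Surgery on replicates 1 and 5. The gene called higher was Itgb2, the shared beta chain of the leukocyte integrins, at 1.49 (adjusted p = 0.15 in limma); it passed the cut-off in 10 of 17 alternative settings and failed without each of FLT-Sham replicates 4, 6 and 9 and FLT-Surgery replicates 3 and 5.

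Elsewhere the lists gave single calls, 1 of 27 genes tested in FLT-Sham against G-Sham (2% of all probes), 1 of 26 in G-Surgery against G-Sham (2.59%) and 1 of 31 in the interaction (4.97% of all probes called lower). Ncf1, a subunit of the NADPH oxidase, was higher in FLT-Sham than in G-Sham by 2.44 (adjusted p = 0.429 in limma), above background on 4 against 0 arrays and at least 3.66-fold higher; it passed the cut-off in 10 of 17 alternative settings, with its lowest value of 0.17 under normexp, and failed without G-Sham replicates 1, 4 or 5. Clec4d, a lectin receptor of myeloid cells, was higher in G-Surgery than in G-Sham by 3.62 (adjusted p = 0.304 in limma), above background on 3 against 0 arrays and at least 7.90-fold higher; it passed in 10 of 15 alternative settings, with its lowest value of 0.69 under normexp, failed without G-Sham replicates 1 or 4, and was on too few arrays to be tested without G-Surgery replicates 1, 3 or 4. Haptoglobin (Hp) was called in the interaction at -3.70 (adjusted p = 0.172 in limma), with a Cy5 signal of 4746 to 38740 in G-Surgery, 1564 to 7749 in FLT-Surgery, 4783 to 15666 in FLT-Sham and 1959 to 5832 in G-Sham; it failed without FLT-Surgery replicate 3 or 5.

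**Figure D4:**
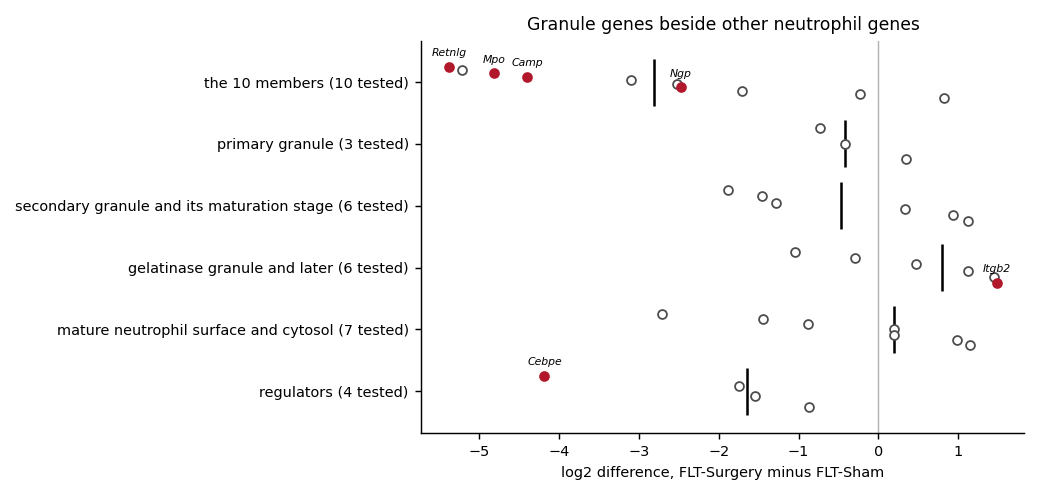
Log2 difference between FLT-Surgery and FLT-Sham for the 10 genes and for the tested genes of 5 other neutrophil lists, with lines at medians; red points passed the cut-off. The line of the 10 genes falls between Ltf and Mmp8, which were above background on no FLT-Surgery array. Cebpe at -4.18 is the only red point among the others below 0.

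Among genes above background on every array, those with the profile most like that of the granule genes were not neutrophil genes. Over 15 arrays, the mean centred log2 ratio of the 10 genes was compared with the 4484 genes that had a symbol and were above background on all arrays. This filter left out Mpo, S100a8, Retnlg, Ltf, Mmp8, Cebpe, Prtn3, Cxcr2 and Mmp9, so these could not be ranked. Of the granule genes that passed it, Camp ranked 349, Ngp 383, S100a9 993, Lcn2 1777 and Elane 3986. The highest r was for Epb41 (0.95), a membrane skeleton protein of red cells, then Ube2o (0.95), Cox7a1 (0.94), a muscle form of a cytochrome oxidase subunit, Spsb3 (0.94), Tma7 (0.93), Fech (0.93) and Urod (0.92), both enzymes of haem synthesis, Pptc7 (0.93), Pnpla2 (0.92), a fat cell lipase, and Stk40 (0.92). After group means were removed, r was between 0.78 and 0.899 for these 10 genes. The points share the arrays, their probe counts and their dye factors, so these values describe a shared pattern only. The profile itself was 0.39 to 1.97 in FLT-Sham and -2.40, -1.99 and -0.08 in FLT-Surgery.

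Some markers of other cell types were also called lower in FLT-Surgery against FLT-Sham, beside 6.23% of all probes. There 4 of 7 tested erythroid markers were called (median -3.25), Hbb-b1, Hba-a1, Alas2 and Slc4a1, as were 4 of 6 adipocyte markers (Adipoq, Plin1, Cfd and Cidec; median -4.74), 2 of 12 muscle markers (Acta1 and Myh2; median -2.48), 1 of 6 megakaryocyte markers (Itga2b), 1 of 5 osteoblast and osteocyte markers (Alpl) and 2 of 3 eosinophil, basophil and mast cell markers (Mcpt8 and Mcpt4). Of 7 tested monocyte and macrophage markers 0 were called (median 0.64), and likewise 0 of 6 B cell, 4 T and NK cell, 3 osteoclast, 3 chondrocyte and 6 endothelial markers. The summed Cy5 signal of the erythroid probes was 81860 to 248188 in FLT-Sham and 23239 to 50273 in FLT-Surgery, with Epb42 and Klf1 not above background on any array. For adipocyte probes it was 9615 to 57872 and 609 to 8473, for muscle 1361372 to 13223161 and 244137 to 2517913, and for monocytes and macrophages 17018 to 19754 and 15736 to 28692. The part of these cell types, or of the lower number of probes above background in FLT-Surgery, in the granule gene result was not tested.

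**Figure D5:**
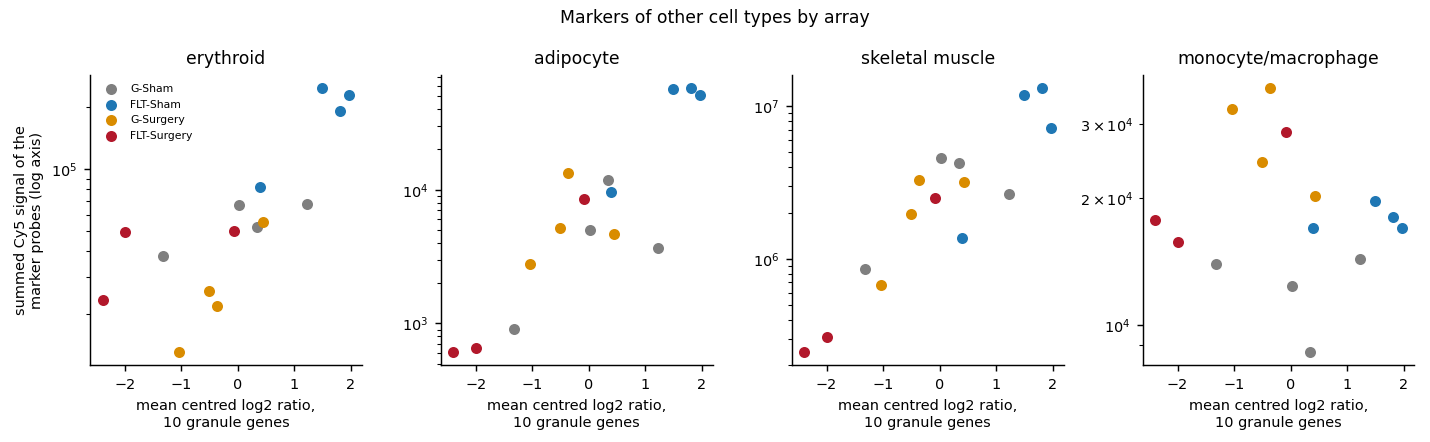
Summed Cy5 signal of erythroid, adipocyte, muscle and monocyte/macrophage marker probes (log axis, 1 panel each) against the mean centred log2 ratio of the 10 granule genes, 1 point per array. FLT-Sham arrays lie at 0.39 to 1.97 on the horizontal axis, and 3 of them stand above all other arrays in erythroid, adipocyte and muscle signal.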

How the data were processed

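RNA from 15 femur samples was hybridized on 15 arrays with 2 channels. The authors' scanner files, made with Agilent Feature Extraction 12.0.3.1, hold for each spot a deposited log10 ratio of Cy5 to Cy3, background-subtracted and normalized for dye bias by a linear step and lowess, and the deposited processed intensity and raw median intensity of each channel. The deposited flags for signals well above background, saturation and outliers were used as given. Precision here is set by how many arrays each group has.

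Spots of 1 probe were averaged, the ratio was converted to log2, and no further loess was applied, since the deposited log2 values already carry one. A probe entered a test when its Cy5 flag was set on 3 or more arrays of that test, and the test was limma 3.58.1 (R 4.3.3), with Benjamini-Hochberg adjustment over all probes tested. Calls followed the study's cut-off, a 2-fold or larger change with p no higher than 0.01 before adjustment. Each gene was given by its brightest probe. For folds given as at least a value, and for the fold of Cebpe, Cy5 was first scaled between arrays by quantiles of brightness. Each array of the dimmer group then counted at its signal or at its dimmest signal still called above background, whichever was higher. Groups and replicate numbers came from the sample labels. The genes, the neutrophil and cell type lists and the tests were chosen with earlier results of these data known. The named genes were the 10 genes, list genes that passed the cut-off or carry a described role, and the 10 genes most like them. The alternatives were a second loess, normexp on median signals (offset 50, since the files used give no mean signals) with loess, Cy5 alone scaled to its 75th percentile, median centring, no filter, both channels above background on every array, saturated spots left out, slide and replicate blocks, array weights, all arrays in 1 fit and leaving out each array. Promoter sequences were taken from RefSeq (GRCm38.p6). The array files name an older build, so no probe coordinates are given. The fits were tested on simulated data.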

Additional observations from a re-analysis of the deposited data

Results flagged for a closer look

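In FLT-Sham, the S100a8 log2 ratio of replicate 8 was 2.60, against 5.61 to 5.76 on the other arrays of the group, and its gap to the nearest array was 0.952 of the group's range. This was the only such value among 33 groups of 4 arrays examined, and chance gives about 1 in 20.

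At the cut-off on unadjusted p, the flight difference was lower in operated than in Sham femurs, tested as an interaction in limma, for Camp by -4.25 and its second probe by -4.55, for Mpo by -3.74 and for Hp by -3.70 on the log2 scale. Their adjusted p in limma was 0.171 to 0.179, and 0 of 21773 probes reached 0.05, while 4.97% were called lower. With a second loess 0 granule gene probes passed, and Mpo missed the cut-off in 9 of the 15 fits that left out 1 array.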

How the results depend on the processing

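Of 1009 values of single genes under an alternative, 871 kept their sign and their side of the cut-off, 47 lost and 38 gained a call, and 53 changed sign, none of them a called value. Mpo, Camp and Cebpe in FLT-Surgery against FLT-Sham passed under every alternative run, Ngp in 14 of 16 and Retnlg in 9 of 16. With array weights the number of granule gene probes past the cut-off went to 3 from 0 (FLT-Sham against G-Sham), 3 from 0 (FLT-Surgery against G-Surgery), 10 from 5 (FLT-Surgery against FLT-Sham) and 6 from 3 (interaction), while 23.7%, 12.2%, 48.5% and 29.3% of all probes were then called. A second loess gave 3 in FLT-Surgery against FLT-Sham and 0 in the interaction. With both channels above background on every array, 4, 4 and 3 probes were left in FLT-Surgery against FLT-Sham, FLT-Surgery against G-Surgery and the interaction, and 2, 1 and 1 were called. In FLT-Sham against G-Sham normexp and the slide block each gave 1, and in G-Surgery against G-Sham normexp and Cy5 alone each gave 1, Ngp. Leaving out 1 array gave 0 to 3 calls in FLT-Sham against G-Sham, 0 to 3 in FLT-Surgery against G-Surgery, 0 to 1 in G-Surgery against G-Sham, 3 to 7 in FLT-Surgery against FLT-Sham and 1 to 5 in the interaction. The cause of these moves was not tested.

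The values that changed sign were these. In FLT-Sham against G-Sham, Ngp was -0.36 with a second loess and -0.29 with array weights, Lcn2 was -0.17 with loess, -0.18 with normexp, -0.042 with Cy5 alone and -0.088 with array weights, S100a9 was 0.42 with normexp and 0.47 with Cy5 alone, and Elane was 0.025 with normexp. In FLT-Surgery against G-Surgery, Lcn2 was 0.40 with loess, 0.054 with normexp, 0.16 with Cy5 alone, 0.0048 with median centring, 0.038 with the slide block and 0.032 with the replicate block, and with normexp S100a8 was 0.16 and Elane -0.13. S100a8 was 0.060 in G-Surgery against G-Sham with the slide block. Lcn2 in FLT-Surgery against FLT-Sham was 0.32 with loess, 0.082 with normexp and 0.0065 with Cy5 alone, and in the interaction 0.58, 0.24, 0.21 and, with array weights, 0.083, where Elane was -0.15 with normexp. Leaving out 1 array turned signs in FLT-Sham against G-Sham for Lcn2 (-0.017 to 0.24), Ngp (-0.0074 to 0.64), S100a9 (-0.52 to 0.026) and Elane (-0.44 to 0.0048), in FLT-Surgery against G-Surgery for Lcn2 (-0.24 to 0.16), in the interaction for Lcn2 (-0.35 to 0.057), and in G-Surgery against G-Sham for S100a8 (-2.27 to 0.76), S100a9 (-0.30 to 0.19), Camp (-0.77 to 0.44), its second probe (-0.84 to 0.52) and Lcn2 (-0.29 to 0.12).

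Over all probes, lower calls were 41 of 394 in FLT-Sham against G-Sham, 346 of 519 in FLT-Surgery against G-Surgery, 90 of 458 in G-Surgery against G-Sham, 1191 of 1272 in FLT-Surgery against FLT-Sham and 1082 of 1160 in the interaction. A second loess made these 86 of 247, 62 of 1190, 175 of 407, 576 of 1193 and 233 of 897. Normexp made them 23 of 33, 36 of 208, 108 of 180, 196 of 293 and 148 of 321, and Cy5 alone 120 of 440, 185 of 775, 261 of 592, 1004 of 1307 and 697 of 1094. No spot was saturated, so leaving such spots out changed nothing.

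Same-numbered arrays did not deviate together, with correlations between -0.416 and 0.214 in FLT-Surgery against G-Surgery and between -0.125 and 0.344 in G-Surgery against G-Sham over 8291 probes, so the numbers were not taken as pairs. A replicate block gave 215 calls over all probes in place of 519, and 389 in place of 458, with 0 granule gene probes called in each. The other comparisons shared too few numbers for a block. Weak spots limit Ltf, Mmp8 and Retnlg, which were above background on 5, 3 and 8 of 15 arrays.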
